A study of Homo sapiens with 18 samples.

Results

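The transcripts of 31 genes of homologous recombination and of the Fanconi anaemia pathway were followed in the human lung cancer cell lines H1299 and A549 after knockdown of YAP or TAZ. The genes were taken by symbol from the deposited gene tables, and all 31 were listed in both, of 18978 genes in the H1299 table, 20335 in the A549 table and 17094 in the tables of both lines. The list is one of gene function, drawn up with earlier results of these data known.

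RNA-seq was run on poly(A) RNA from 18 libraries, with 3 libraries in each of 6 groups. The groups were H1299 siYAP, H1299 siTAZ and H1299 siControl, and A549 siYAP, A549 siTAZ and A549 siControl. All groups, controls included, had received 30 nM siRNA for 48 h and had been without serum over the last 18 h. The siYAP and siTAZ reagents were SMARTpools, mixtures of siRNAs against the transcripts of YAP1 and WWTR1 (the gene of TAZ). H1299 cells, a non-small cell lung carcinoma line, were grown in RPMI-1640, and A549 cells, a lung adenocarcinoma line, in DMEM. Line, medium and experiment therefore cannot be told apart. Nothing in the labels ties replicates to independent cultures, so p-values here reflect the spread among these libraries only, and that spread may be technical.

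YAP and TAZ are related transcriptional coactivators of the Hippo pathway that act mainly through TEAD transcription factors. Homologous recombination repairs DNA double-strand breaks and broken replication forks from an undamaged sister chromatid: nucleases resect the break, BRCA1, PALB2 and BRCA2 act on the single strand, and strand exchange factors help to pair it with the template. The Fanconi pathway unhooks crosslinks between DNA strands: a core complex with the ubiquitin-conjugating enzyme UBE2T ubiquitinates the FANCI and FANCD2 pair, which then recruits nucleases and recombination factors. Many genes of both pathways are transcribed most strongly in S and G2 phase, when a sister chromatid is present.

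Depth was 16.8 to 20.8 M assigned reads per H1299 library and 10.7 to 45 M per A549 library. In H1299 siYAP libraries, YAP1 stood at 12.83, 19.65 and 11.73 CPM (reads of a gene relative to the assigned reads of its library, scaled by TMM between the libraries of a line), against 83.6, 83.84 and 77.88 CPM in siControl. WWTR1 stood at 36.13, 82.7 and 29.05 CPM in H1299 siTAZ libraries, against 265.5, 276.5 and 229.3 CPM in siControl, so siTAZ 2 kept more of its target than siTAZ 1 and siTAZ 3. The other gene of the pair also lay apart from the controls in H1299 without passing the test. WWTR1 had 172.8, 203.2 and 167.2 CPM in siYAP, below all siControl libraries (log2 fold change -0.51 ± 0.26, adjusted p = 0.204), and YAP1 had 96.47, 105.9 and 100.5 CPM in siTAZ, above all siControl libraries (0.30 ± 0.13, adjusted p = 0.117). In A549, YAP1 stood at 16.99, 15.45 and 19.5 CPM in siYAP and at 59.56, 56.93 and 58.31 CPM in siControl, and WWTR1 at 70.7, 50.92 and 51.64 CPM in siTAZ and at 174.4, 179.8 and 176.4 CPM in siControl. WWTR1 gave -0.16 in A549 siYAP (adjusted p = 0.0846) and YAP1 0.04 in A549 siTAZ (adjusted p = 0.703). The epithelial keratin genes KRT8 and KRT18 were read in both lines, EPCAM was at most 0.66 CPM in H1299 and 4.38 CPM in A549, and PTPRC and CD3E, which mark blood cells, were not listed in either table. CD14, the other blood marker examined, was not listed in H1299 and had 4.17 to 7.79 CPM over the A549 libraries. Of the 9 markers of blood, endothelial and fibroblast cells, those listed in a line were summed. These were PECAM1, VWF, PDGFRB and DCN in H1299, and CD14, CDH5, PDGFRB and LUM in A549. The sums of the lines are therefore of different sets of genes. They were 5.39 to 7.84 CPM in H1299 siYAP, 5.22 to 6.53 CPM in siTAZ and 3.16 to 4.04 CPM in siControl. Both knockdown groups of H1299 lay above the controls. Over all A549 libraries the sums ran from 5.35 to 9.30 CPM, and the groups overlapped. Of the 3 markers that could be tested in H1299, PDGFRB was higher after siYAP (0.98, adjusted p = 0.0156) and after siTAZ (0.80, adjusted p = 0.0324) and VWF after siTAZ (1.81, adjusted p = 0.0187), and none of the 3 markers tested in A549 passed. Their part in the results below was not tested. All 31 genes passed the filter on low counts in both lines. The fewest reads were 12 to 26 per library for FANCF in H1299 and 8 upward for FANCB in A549.

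In H1299, knockdown of YAP lowered 17 of the 31 genes and raised none at an adjusted p below 0.05 by edgeR (quasi-likelihood test, Benjamini-Hochberg over 15775 genes), the test behind every adjusted p given here unless another is named. Of all genes tested, 8.75% were called lower and 7.89% higher. The median log2 fold change was -0.46 over the 31 genes and 0.01 over all genes, and the 3 siYAP libraries all lay below the 3 siControl libraries for 15 of the 31, against 18.3% of all genes. No member was higher at an unadjusted p below 0.05 or by DESeq2. With the replicate number as a block, 20 members were lower, while more of all genes were called as well. Knockdown of TAZ lowered 23 of the 31 and raised none (25 lower with the block, where more of all genes were called too). Without the block, 12.4% of all genes were called lower and 10.9% higher. The median was -0.56 over the 31 genes and 0.01 over all genes, and the 3 siTAZ libraries lay below the siControl libraries for 25 of the 31, against 20.1% of all genes. Again no member was higher at an unadjusted p below 0.05 or by DESeq2. The siYAP and siTAZ comparisons use the same siControl libraries. In bulk RNA, fewer cells in S and G2 phase and less RNA of these genes per cell cannot be told apart.

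**Figure D1:**
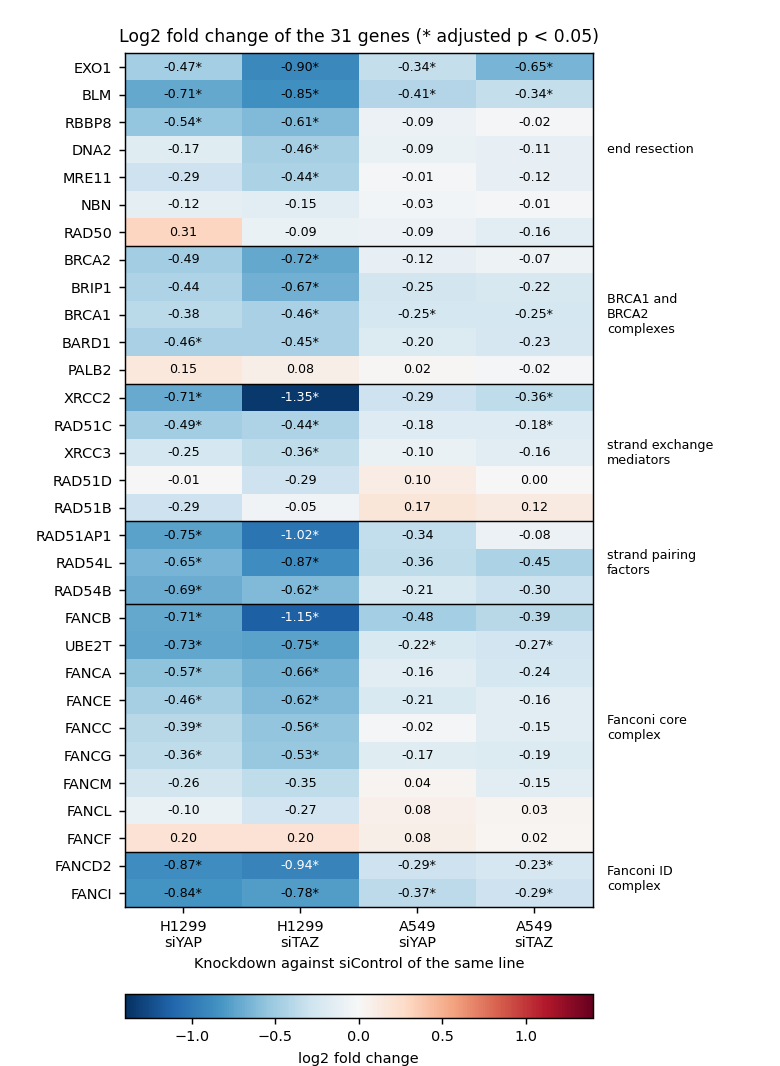
Log2 fold change of each of the 31 genes (grouped by role down the page) for siYAP and siTAZ against siControl in H1299 and A549 (across); an asterisk marks an adjusted p below 0.05. Every asterisk stands on a negative value, 17 for siYAP and 23 for siTAZ in H1299, and 6 for siYAP and 8 for siTAZ in A549, where the fit has the replicate number as a block.

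End resection, which trims a break to single-stranded DNA, held both large declines and genes that did not pass. Of its 7 genes, 3 fell after siYAP and 5 after siTAZ in H1299. EXO1, the exonuclease of long-range resection, had 16.8, 20.5 and 16.5 CPM in siYAP, 13.98, 12.7 and 13.3 CPM in siTAZ, and 28.4, 20.1 and 25.9 CPM in siControl. All siTAZ libraries lay below all siControl libraries, whereas siYAP 2 lay above siControl 2. The log2 fold change was -0.47 ± 0.13 (SE) after siYAP (adjusted p = 0.0275) and -0.90 ± 0.14 after siTAZ (adjusted p = 0.00103). RBBP8, whose product CtIP starts resection together with the MRE11 complex, had 48.2, 50.7 and 47.7 CPM in siYAP, 49.8, 44.2 and 45.6 CPM in siTAZ, and 78.2, 66.2 and 69.2 CPM in siControl. Both knockdown groups lay wholly below the controls, and RBBP8 had the smallest adjusted p of the 31 genes after siYAP (log2 fold change -0.54 ± 0.09, adjusted p = 0.00204). After siTAZ it fell by 0.61 on the log2 scale (SE 0.09, adjusted p = 0.00087). The helicase gene BLM fell by 0.71 after siYAP and by 0.85 after siTAZ on the log2 scale. DNA2, the nuclease that works with BLM, and the nuclease gene MRE11 fell after siTAZ (-0.46 and -0.44). After siYAP they gave -0.17 and -0.29 and did not pass. The partners of MRE11 in its complex passed in neither comparison: NBN gave -0.12 after siYAP and -0.15 after siTAZ, and RAD50 gave 0.31 and -0.09.

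Of the 5 genes of the BRCA1 and BRCA2 complexes, 1 fell after siYAP and 4 after siTAZ in H1299. BRCA1, which promotes resection and recruits BRCA2 through PALB2, had 28.9, 27.97 and 27.1 CPM in siYAP, 29.9, 25.1 and 24.5 CPM in siTAZ, and 43.1, 29.6 and 36.6 CPM in siControl. The siYAP libraries lay below all controls, and siControl 2, the lowest control, overlapped siTAZ 1. BRCA1 gave -0.38 ± 0.13 after siYAP (adjusted p = 0.0549) and -0.46 ± 0.13 after siTAZ (adjusted p = 0.0193). BRCA2, a mediator of strand exchange, gave -0.49 ± 0.17 after siYAP (adjusted p = 0.0654) and -0.72 ± 0.17 after siTAZ (adjusted p = 0.0102). With the replicate number as a block, BRCA1 (adjusted p = 0.01), BRCA2 (0.034) and the BRCA1-bound helicase gene BRIP1 (0.0226) also passed after siYAP, and by DESeq2 the adjusted p of the same genes were 0.0373, 0.035 and 0.0349. BARD1, the partner of BRCA1 in its ubiquitin ligase, passed in both comparisons (-0.46 after siYAP, -0.45 after siTAZ), and BRIP1 after siTAZ (-0.67). PALB2, which bridges BRCA1 and BRCA2, gave 0.15 after siYAP (adjusted p = 0.386) and 0.08 after siTAZ (adjusted p = 0.636).

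XRCC2, XRCC3, RAD51B, RAD51C and RAD51D form complexes that assist strand exchange, and 2 of these 5 genes fell after siYAP and 3 of 5 after siTAZ. XRCC2 had 12.3, 16.8 and 10.9 CPM in siYAP, 9.20, 8.78 and 7.47 CPM in siTAZ, and 25.6, 16.6 and 22.7 CPM in siControl. The siTAZ libraries were the lowest without overlap, and siYAP 2 lay just above siControl 2. XRCC2 fell by 1.35 on the log2 scale after siTAZ (SE 0.18, adjusted p = 0.000639), to 0.391 of the siControl level, the largest decline of the 31 genes in that comparison. After siYAP it fell by 0.71 (SE 0.18, adjusted p = 0.0164). RAD51C passed in both comparisons (-0.49 after siYAP and -0.44 after siTAZ) and XRCC3 after siTAZ (-0.36). RAD51D and RAD51B passed in neither, with values from -0.29 to -0.01.

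All 3 genes of strand pairing fell in both H1299 comparisons. RAD51AP1, which stimulates the pairing of strands, had 13.2, 17.8 and 13.7 CPM in siYAP, 13.8, 11.99 and 11.3 CPM in siTAZ, and 27.1, 20.02 and 28.02 CPM in siControl, with no overlap of either knockdown group with the controls. It fell by 0.75 after siYAP (SE 0.15, adjusted p = 0.0054) and by 1.02 after siTAZ (SE 0.15, adjusted p = 0.001). The DNA translocase genes RAD54L and RAD54B fell by 0.65 and 0.69 after siYAP, and by 0.87 and 0.62 after siTAZ.

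Of the 9 genes of the Fanconi core complex, UBE2T included, 6 fell after siYAP and 6 after siTAZ in H1299. UBE2T had 18.6, 26.9 and 19.6 CPM in siYAP, 21.98, 23.6 and 18.3 CPM in siTAZ, and 37.1, 30.6 and 39.9 CPM in siControl. Each knockdown library lay below each siControl library. UBE2T fell by 0.73 after siYAP (SE 0.15, adjusted p = 0.00587) and by 0.75 after siTAZ (SE 0.15, adjusted p = 0.00357). FANCB, a subunit of the core complex encoded on the X chromosome, fell by 0.71 after siYAP and by 1.15 after siTAZ, on 54 to 140 reads per library. FANCA, FANCE, FANCC and FANCG, further subunits, fell by 0.36 to 0.57 after siYAP and by 0.53 to 0.66 after siTAZ. FANCL, the ubiquitin ligase subunit, gave -0.10 after siYAP and -0.27 after siTAZ, and FANCM, the translocase that anchors the complex, gave -0.26 and -0.35. Neither passed, and with the replicate number as a block both passed after siTAZ (adjusted p of 0.0366 for FANCL and 0.0409 for FANCM). FANCF, an adaptor subunit, was sparse in H1299 and gave 0.20 ± 0.32 after siYAP and 0.20 ± 0.32 after siTAZ, differences within their error.

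Both genes of the ubiquitinated pair fell in both H1299 comparisons. FANCD2 had 25.01, 32.9 and 22.6 CPM in siYAP, 29.6, 24.7 and 22.3 CPM in siTAZ, and 54.9, 36.6 and 54.9 CPM in siControl. FANCI had 34.8, 48.3 and 32.3 CPM in siYAP, 46.1, 39.8 and 33.9 CPM in siTAZ, and 75.98, 52.6 and 76.98 CPM in siControl. For both genes the knockdown libraries lay below all siControl libraries, and siControl 2 was the lowest control. FANCD2 fell by 0.87 after siYAP (SE 0.17, adjusted p = 0.00484) and by 0.94 after siTAZ (SE 0.17, adjusted p = 0.00235). FANCI fell by 0.84 after siYAP (SE 0.17, adjusted p = 0.00587) and by 0.78 after siTAZ (SE 0.17, adjusted p = 0.00607).

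**Figure D2:**
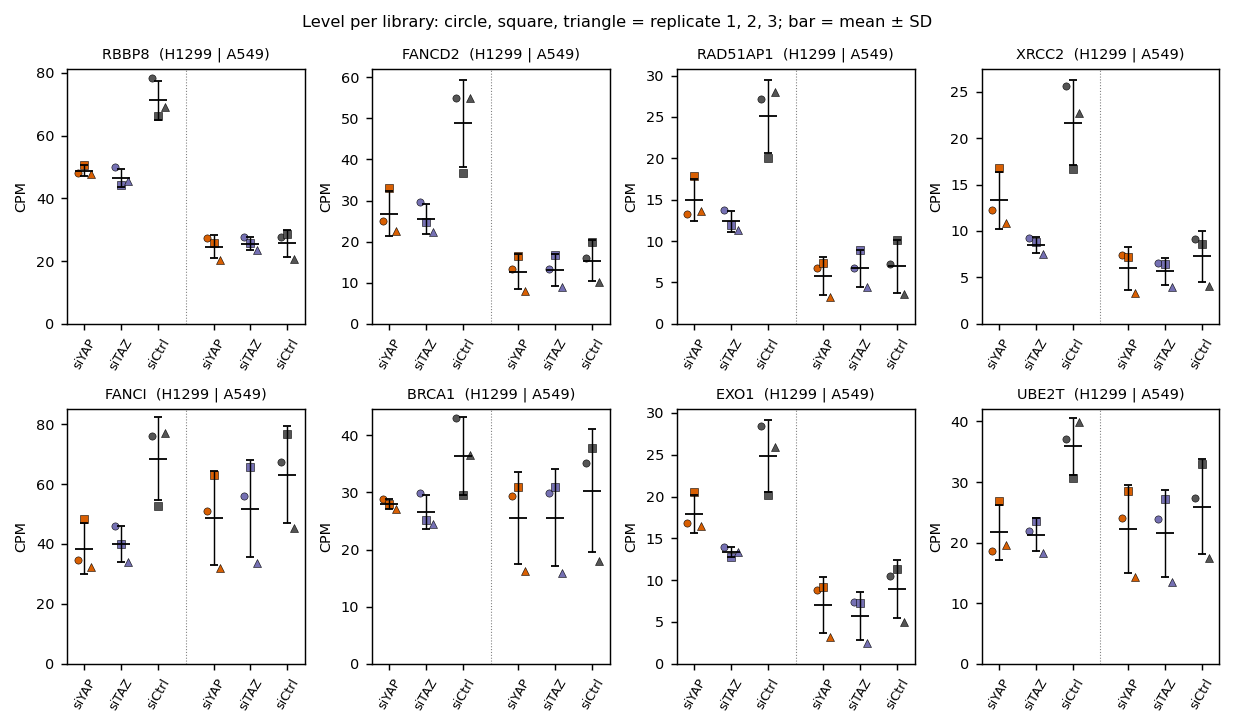
CPM in each library (points) with the group mean ± SD (n = 3) for RBBP8, FANCD2, RAD51AP1, XRCC2, FANCI, BRCA1, EXO1 and UBE2T, with siYAP, siTAZ and siControl of H1299 left of those of A549. In H1299 siControl 2 is the lowest control for all 8 genes drawn, and in A549 replicate 3 is the lowest library of each group for all 8.

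Without 1 library the H1299 counts moved, and so did those of all genes. With 1 library or all libraries of 1 number left out, 34 to 4430 genes were called after siYAP and 144 to 5267 after siTAZ. After siYAP, 5 of the 31 genes were called without siYAP 1, 5 without siYAP 3, 5 without siControl 1, 6 without siControl 3, and 20 without siYAP 2 or without siControl 2. After siTAZ, 15 were called without siTAZ 3 and 15 without siControl 1, and 24 without siControl 2. The median of the 31 genes stayed between -0.56 and -0.36 after siYAP and between -0.63 and -0.47 after siTAZ with any 1 library left out.

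Genes that mark dividing cells moved with these genes. Of 16 S phase markers, 14 fell after siYAP and 16 after siTAZ in H1299, and of 15 mitosis markers 15 and 14 fell. The summed level of the 31 genes was 722.4 ± 80.8 CPM in H1299 siYAP, 663.4 ± 43.3 CPM in siTAZ and 983 ± 126 CPM in siControl (SD, n = 3). The summed S phase level was 1560 ± 189 CPM in siYAP, 1330 ± 103 CPM in siTAZ and 2365 ± 352 CPM in siControl, and the summed mitosis level 1618 ± 401 CPM in siYAP, 1942 ± 271 CPM in siTAZ and 3296 ± 550 CPM in siControl. In H1299, siYAP 2 was the highest siYAP library and siControl 2 the lowest siControl library for all 3 sums, while siTAZ 1 was the highest siTAZ library for the 31 genes and the S phase markers and siTAZ 2 for the mitosis markers. The part of the dividing-cell genes in the declines was not tested.

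**Figure D3:**
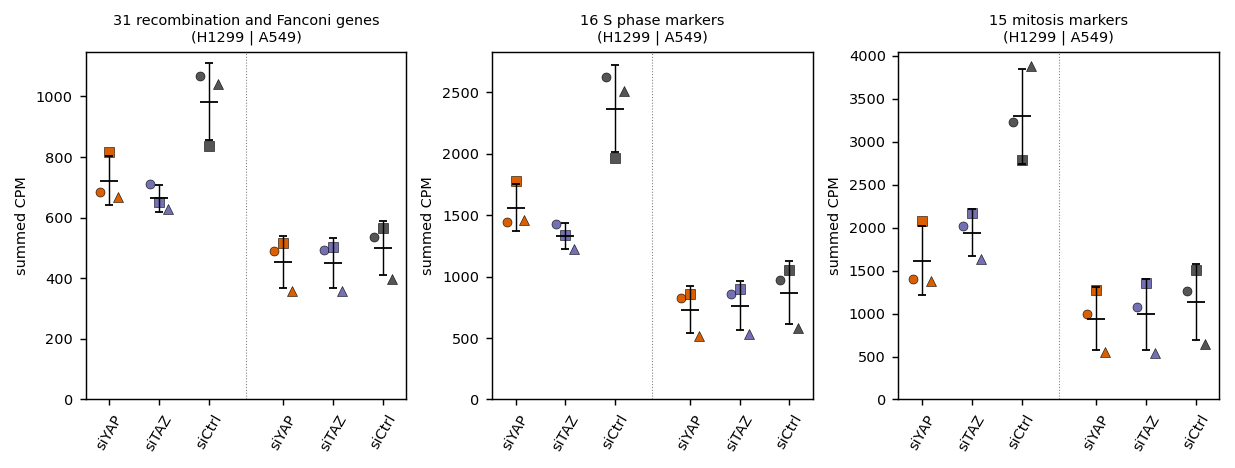
Summed CPM of the 31 genes, of the 16 S phase markers and of the 15 mitosis markers in each library (points) with the group mean ± SD (n = 3), H1299 left and A549 right of the dotted line. In H1299 the siYAP and siTAZ libraries lie below the siControl libraries in all 3 panels; in A549 replicate 3 is the lowest of each group.

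The genes lowered in all 4 knockdown comparisons were EXO1, FANCD2, BLM, FANCI and UBE2T, and promoters are shown for those of the 5 found in the promoter table, since these genes moved together. FANCI, DNA2, NBN and RAD54B were not found in it. They run from 250 bases before to 50 bases after the start of transcription (RefSeq, GRCh38.p14), are written 5′ to 3′ on the strand of the gene, and are given for EXO1, FANCD2, BLM and UBE2T. Capitals mark E2F-type matches (the letters TTCGCGC, also the variant TTGGCGC, and also the variant TTCCCGC, on either strand) in the first 3, and in UBE2T, which holds none, a match to the cell cycle homology region, CHR (the letters TTTGAA, or else the variant TTCGAA, on either strand). E2F factors and the complexes that bind CHR elements are known regulators of genes transcribed in S and G2 phase.
EXO1 (chr1:241847954-241848253, plus strand): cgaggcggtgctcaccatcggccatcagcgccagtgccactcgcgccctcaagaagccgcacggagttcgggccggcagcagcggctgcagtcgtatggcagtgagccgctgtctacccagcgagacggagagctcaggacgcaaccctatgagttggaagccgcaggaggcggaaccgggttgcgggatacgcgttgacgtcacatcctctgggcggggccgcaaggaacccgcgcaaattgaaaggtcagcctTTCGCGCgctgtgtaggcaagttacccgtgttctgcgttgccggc
FANCD2 (chr3:10026187-10026486, plus strand): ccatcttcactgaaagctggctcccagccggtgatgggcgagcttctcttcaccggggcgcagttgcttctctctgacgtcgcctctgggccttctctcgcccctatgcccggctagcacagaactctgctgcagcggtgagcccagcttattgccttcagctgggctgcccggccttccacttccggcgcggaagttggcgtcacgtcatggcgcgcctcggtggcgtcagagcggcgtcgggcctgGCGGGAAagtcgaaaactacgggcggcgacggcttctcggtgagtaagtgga
BLM (chr15:90717096-90717395, plus strand): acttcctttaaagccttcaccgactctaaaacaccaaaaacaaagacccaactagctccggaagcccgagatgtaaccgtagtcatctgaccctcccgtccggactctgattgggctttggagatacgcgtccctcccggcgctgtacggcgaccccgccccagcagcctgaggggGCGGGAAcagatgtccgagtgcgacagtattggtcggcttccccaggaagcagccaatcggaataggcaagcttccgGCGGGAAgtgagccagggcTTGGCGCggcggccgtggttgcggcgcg
UBE2T (chr1:202341887-202342186, minus strand): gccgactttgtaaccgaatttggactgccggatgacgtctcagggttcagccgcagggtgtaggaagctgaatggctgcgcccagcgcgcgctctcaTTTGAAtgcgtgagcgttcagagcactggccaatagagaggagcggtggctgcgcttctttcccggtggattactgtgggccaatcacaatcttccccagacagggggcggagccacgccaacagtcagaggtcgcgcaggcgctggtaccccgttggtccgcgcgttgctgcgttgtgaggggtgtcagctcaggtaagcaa
The E2F-type match begins at position 5 in EXO1 and at position -2 in FANCD2, and the 3 matches of BLM begin at positions -74, 3 and 22, counted from the start of transcription as 0. BLM also holds 3 CCAAT matches and UBE2T 2, none of which overlaps a capital. Of the 27 members found in the promoter table, 16 (59.3%) held an E2F-type match, against 11.2% of 27305 promoters of the same length. Among the 20 of them that fell after siTAZ in H1299, 13 held one, and among the 7 that did not pass, 3 did. CHR matches were in 11.1% of the 27 and 16.6% of all promoters, CCAAT in 40.7% and 35.7%, TEAD-type matches (GGAATG, either strand) in 14.8% and 14%, and AP-1 matches (TGANTCA, either strand) in 0 of the 27 and 7.76% of all. These are matches of letters and were not tested as binding sites. The 27305 promoters were not limited to genes tested here, and they were not matched to the members in base composition.

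The knockdowns were also set against each other in H1299. Of the 31 genes, 1 was higher in siYAP than in siTAZ and none was lower, where 5.6% of all genes were called higher and 6.1% lower, and no member was lower at an unadjusted p below 0.05 or by DESeq2. XRCC2 averaged 13.3 ± 3.07 CPM in siYAP and 8.48 ± 0.90 CPM in siTAZ (SD, n = 3), a log2 fold change of 0.65 ± 0.19 (adjusted p = 0.0382), with no overlap of the libraries. EXO1 gave 0.42 ± 0.14 (adjusted p = 0.059) and RAD50 0.39 ± 0.15 (adjusted p = 0.0957), and both passed with the replicate number as a block (adjusted p of 0.0297 and 0.0484). The median of the 31 genes was 0.14. No member was called without siYAP 1, siYAP 2, siTAZ 1, siTAZ 2, siTAZ 3 or siControl 3, each left out on its own, and 2 were called without siControl 2. Over all genes, 190 to 2945 were called with 1 library or all libraries of 1 number left out.

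In A549 fewer of the 31 genes passed the test. The libraries were fitted with the replicate number as a block, as the authors' own model of this line has it. Knockdown of YAP lowered 6 of the 31 genes and raised none over 16008 genes tested, of which 3.17% were called lower and 2.5% higher. The median was -0.17 over the 31 genes and 0.00 over all genes. Knockdown of TAZ lowered 8 and raised none, where 6.12% of all genes were called lower and 7.21% higher, with a median of -0.16 over the 31 genes and 0.00 over all genes. No member was higher at an unadjusted p below 0.05, or by DESeq2, in either comparison. A same-numbered siYAP library lay below its siControl library in all 3 pairs for 20 of the 31 genes (18.5% of all genes), and a same-numbered siTAZ library for 18 (21.1% of all genes). Both comparisons share the siControl libraries. Without the block, edgeR called none of the 31 genes in either comparison, none at an unadjusted p below 0.05, and 1 gene of all those tested in each. DESeq2 with the block called 1 member after siYAP and 4 after siTAZ, with no adjusted p for 9 and 4 members. Of the 16008 genes it called 363 after siYAP and 1160 after siTAZ, in either direction.

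FANCI had the smallest adjusted p of the 31 genes in A549 after siYAP. It had 51.1, 62.97 and 31.8 CPM in siYAP, 55.9, 65.5 and 33.8 CPM in siTAZ, and 67.2, 76.8 and 45.2 CPM in siControl. Replicate 3 was the lowest library of each group, so the groups overlapped, while each knockdown library was below the siControl library of its own number. FANCI fell by 0.37 after siYAP (SE 0.05, adjusted p = 5.89e-06) and by 0.29 after siTAZ (SE 0.05, adjusted p = 4.6e-05). FANCD2 had 13.4, 16.4 and 8.06 CPM in siYAP, 13.4, 16.7 and 9.03 CPM in siTAZ, and 15.99, 19.98 and 10.1 CPM in siControl. It was again lower within every pair, by 0.29 after siYAP (SE 0.07, adjusted p = 0.0127) and by 0.23 after siTAZ (SE 0.07, adjusted p = 0.0253). UBE2T had 24.1, 28.5 and 14.2 CPM in siYAP, 23.9, 27.3 and 13.4 CPM in siTAZ, and 27.4, 32.9 and 17.5 CPM in siControl. Each of the 3 pairs had the knockdown library lower, and UBE2T fell by 0.22 after siYAP (SE 0.06, adjusted p = 0.0225) and by 0.27 after siTAZ (SE 0.06, adjusted p = 0.0015). The other 8 core complex genes did not pass, with values from -0.48 to 0.08 after siYAP and from -0.39 to 0.03 after siTAZ.

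EXO1 showed the largest decline of the 31 genes after siTAZ in A549. It had 8.78, 9.14 and 3.20 CPM in siYAP, 7.36, 7.30 and 2.42 CPM in siTAZ, and 10.5, 11.3 and 4.95 CPM in siControl, lower within every pair. It fell by 0.65 on the log2 scale after siTAZ (SE 0.10, adjusted p = 2.04e-05) and by 0.34 after siYAP (SE 0.10, adjusted p = 0.0344). BRCA1 had 29.4, 30.99 and 16.2 CPM in siYAP, 29.9, 31.03 and 15.8 CPM in siTAZ, and 35.2, 37.7 and 17.96 CPM in siControl. It was lower within every pair and fell by 0.25 after siYAP (SE 0.06, adjusted p = 0.00549) and by 0.25 after siTAZ (SE 0.06, adjusted p = 0.00199). BLM fell by 0.41 after siYAP and by 0.34 after siTAZ, and XRCC2 (-0.36) and RAD51C (-0.18) fell after siTAZ. XRCC2 had 7.46, 7.15 and 3.32 CPM in siYAP, 6.57, 6.44 and 3.97 CPM in siTAZ, and 9.09, 8.63 and 4.11 CPM in siControl. Each siTAZ library lay below its own siControl library, and the groups overlapped. The 3 genes of strand pairing (RAD51AP1, RAD54L and RAD54B) did not pass in A549. The members that did not pass had values from -0.48 to 0.17 after siYAP and from -0.45 to 0.12 after siTAZ.

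Single libraries moved the A549 counts as well, and those of all genes with them. With 1 library or all libraries of 1 number left out, 157 to 1027 genes were called after siYAP and 940 to 2142 after siTAZ. After siYAP, 1 member was called without siYAP 2 and 1 without siControl 2. After siTAZ, 5 were called without siTAZ 2, 4 without siControl 1 and 3 without siControl 2. Dividing-cell genes fell here too: 13 of 16 S phase and 14 of 15 mitosis markers after siYAP, and 11 of 16 and 12 of 15 after siTAZ. The summed level of the 31 genes was 454.3 ± 84.9 CPM in A549 siYAP, 450.8 ± 81.5 CPM in siTAZ and 499.5 ± 90.2 CPM in siControl (SD, n = 3), and that of the S phase markers 730.9 ± 190 CPM in siYAP, 763.9 ± 201 CPM in siTAZ and 869.3 ± 253 CPM in siControl. The summed mitosis level was 941.5 ± 365 CPM in siYAP, 991.4 ± 411 CPM in siTAZ and 1139 ± 443 CPM in siControl. Replicate 3 was the lowest library of each group in these sums. The part of the dividing-cell genes in the declines was not tested.

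Between siYAP and siTAZ in A549 no member was called, where 4.52% of all genes were called lower and 2.52% higher. At an unadjusted p below 0.05, EXO1 was higher in siYAP (0.31 ± 0.11) and RAD51AP1 lower (-0.26 ± 0.11), with adjusted p of 0.0741 and 0.174, and DESeq2 called none.

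The lines were compared by an interaction term over 15816 genes in a joint fit of all 18 libraries. The siYAP effect was lower in H1299 than in A549 for 1 member and higher for none, where 1.31% of all genes were called lower and 0.955% higher. That gene was RBBP8, with a difference of -0.47 ± 0.12 (adjusted p = 0.0375). At an unadjusted p below 0.05, 7 members were lower and RAD50 was higher. The siTAZ effect was lower in H1299 for 3 members and higher for none, where 3.24% of all genes were called lower and 2.73% higher. At an unadjusted p below 0.05, 13 members were lower and none was higher. XRCC2 differed by -1.02 ± 0.24 (adjusted p = 0.0215), RAD51AP1 by -0.98 ± 0.21 (adjusted p = 0.0134) and RBBP8 by -0.615 ± 0.12 (adjusted p = 0.00689). DESeq2 called no member higher in either. In A549, RBBP8 had 27.4, 25.8 and 20.5 CPM in siYAP, 27.6, 25.6 and 23.4 CPM in siTAZ, and 27.8, 28.6 and 20.6 CPM in siControl, and its log2 fold changes of -0.09 after siYAP and -0.02 after siTAZ did not pass. RAD51AP1 had 6.79, 7.37 and 3.20 CPM in siYAP, 6.72, 8.91 and 4.43 CPM in siTAZ, and 7.16, 10.1 and 3.65 CPM in siControl there. The siTAZ values of both genes lay among the A549 siControl values, whereas in H1299 they lay below all controls.

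FANCD2 gave a siTAZ difference of -0.71 ± 0.21 (adjusted p = 0.0545). The remaining members did not pass, with differences from -0.58 to 0.40 for siYAP and, FANCD2 aside, from -0.77 to 0.19 for siTAZ. With the replicate number as a block in both lines, 2 members passed for siYAP and 7 for siTAZ. In that fit 1712 and 2797 of all 15816 genes were called, in either direction. With no block no member passed for either, and 13 and 60 of all genes were called. Without the block, 1 member was lower and 1 higher for siYAP, and 3 were lower for siTAZ, at an unadjusted p below 0.05. With 1 library left out, the siYAP count was 0 without H1299 siYAP 1, siYAP 3, siControl 1 or siControl 3, 0 without any of the A549 siYAP or siControl libraries or A549 siTAZ 1 or siTAZ 2, 5 without H1299 siYAP 2 and 4 without H1299 siControl 2. The siTAZ count was 1 without A549 siTAZ 3 or A549 siControl 1, 5 without H1299 siTAZ 2 and 8 without H1299 siControl 2. Over all genes, 0 to 1612 were called for siYAP and 0 to 2356 for siTAZ with 1 library or 1 replicate number left out. Of the S phase markers, 1 of 16 differed for siYAP and 9 of 16 for siTAZ, lower in H1299, and of the mitosis markers 5 of 15 and 2 of 15. Their part in these differences was not tested.

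**Figure D4:**
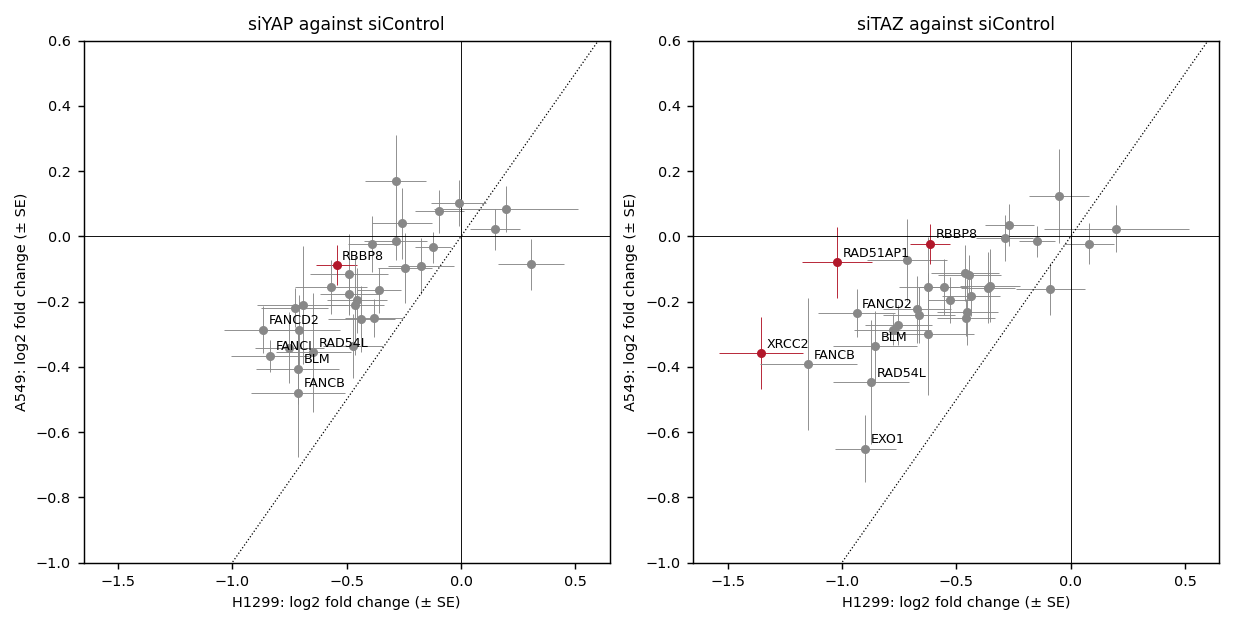
Log2 fold change against siControl in H1299 (x axis) and in A549 (y axis) for each of the 31 genes, siYAP left and siTAZ right, with bars of ± SE; red marks genes whose effect differed between the lines at an adjusted p below 0.05, and the dotted line marks equal effects. Red are RBBP8 (difference -0.47) for siYAP, and XRCC2 (-1.02), RAD51AP1 (-0.98) and RBBP8 (-0.615) for siTAZ, all left of the dotted line.

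Some members were called in both lines, which share no libraries. For siYAP, 5 genes were called lower in both lines, 29.4% of the 17 in H1299 and 83.3% of the 6 in A549, namely EXO1, BLM, FANCD2, FANCI and UBE2T. Over the 14027 genes tested in both lines, 2.23% were called lower in both, 23.3% of those lower in H1299 and 64.5% of those lower in A549. For siTAZ, 8 were called lower in both, 34.8% of the 23 in H1299 and 100% of the 8 in A549, namely the same 5 with BRCA1, RAD51C and XRCC2. Over all genes 3.57% were called lower in both, 26.3% of those lower in H1299 and 56% of those lower in A549. The share of the A549 calls is to be read beside the 23 of 31 members called lower in H1299.

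The lines also differed without knockdown. In the joint fit, 20 of the 31 genes were higher and 5 lower in H1299 siControl than in A549 siControl, where 40% of all genes were called higher and 38.5% lower. The median difference was 0.89 over the 31 genes and 0.03 over all genes. On the CPM scale of the joint fit, RAD54L had 33.9, 24.01 and 32.5 CPM in H1299 siControl, against 3.36, 3.42 and 2.26 CPM in A549 siControl, a log2 difference of 3.42 ± 0.20 (adjusted p = 6.12e-12). FANCF ran the other way, with 0.789, 1.42 and 0.616 CPM in H1299 siControl, against 17.9, 18.8 and 18.1 CPM in A549 siControl, a log2 difference of -4.27 ± 0.18 (adjusted p = 2.97e-14). FANCF was the member furthest apart between the lines, with no overlap of the libraries. BRCA2 (2.53), FANCA (2.47), FANCE (2.38) and XRCC3 (2.04) followed RAD54L among the higher genes on the log2 scale. RAD50 (-1.22), RAD51D (-0.78), PALB2 (-0.39) and NBN (-0.18) were also lower in H1299. The direction of NBN depended on the scale: it had 63.5, 65.2 and 63.9 CPM in H1299 siControl and 75.7, 74.3 and 68.9 CPM in A549 siControl on the joint scale, but averaged 70.1 ± 1.00 CPM in H1299 siControl and 64.1 ± 3.5 CPM in A549 siControl (SD, n = 3) when each line was scaled on its own. BRCA1, FANCI, FANCL, FANCM, MRE11 and UBE2T did not pass, with differences from -0.16 to 0.20. The S phase markers summed to 2166 ± 323 CPM in H1299 siControl and 990.2 ± 289 CPM in A549 siControl on the joint scale (SD, n = 3), and their part in these differences was not tested.

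**Figure D5:**
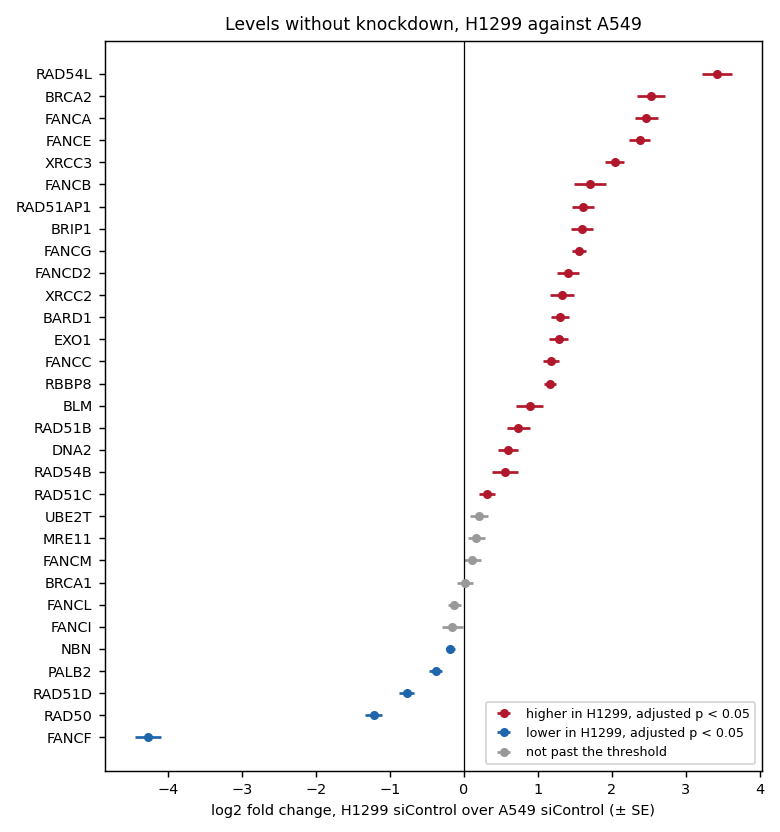
Log2 fold change of H1299 siControl over A549 siControl (x axis, points, bars ± SE) for each of the 31 genes in order of size; red and blue mark an adjusted p below 0.05. The values run from -4.27 (FANCF) to 3.42 (RAD54L), with 20 genes higher and 5 lower in H1299.

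Levels between genes were set side by side as CPM per kb of summed exon length (GENCODE release 29) in siControl, on the CPM scale of the joint fit. UBE2T stood highest in both lines, at 19.89 ± 2.63 CPM per kb in H1299 and 17.89 ± 5.43 in A549 (SD, n = 3). FANCG followed in H1299 at 19.53 ± 2.37, within the spread of UBE2T, and NBN followed in A549 at 11.85 ± 0.583. The lowest member was FANCF in H1299, at 0.3188 ± 0.143, and RAD54B in A549, at 0.4605 ± 0.115. The median over the 31 genes was 4.09 CPM per kb in H1299 and 1.71 in A549. Of the 31 genes, 5 share exon bases with another gene on the same strand and 13 with a gene on the opposite strand, and 16 with neither. The use of strand in counting is not given in the sources used here, so reads of such pairs cannot be assigned with certainty. On the same strand, RAD50 shares 7784 bases with AC116366.3, RAD54B 3139 bases with FSBP and RAD51D 905 bases with RAD51L3-RFFL. On the opposite strand, XRCC3 shares 5756 bases with KLC1, FANCA 2302 with ZNF276, RAD54L 806 with LRRC41 and FANCF 333 with GAS2. RAD51AP1, RBBP8, MRE11 and FANCD2 have named pseudogenes.

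A further 38 genes of recombination and the Fanconi pathway were examined as a list of their own. In H1299, 13 fell and 2 rose after siYAP (median -0.20), and 14 fell and none rose after siTAZ (median -0.21). Over all genes tested there, 8.75% were called lower and 7.89% higher after siYAP, and 12.4% and 10.9% after siTAZ. After siYAP, FIGNL1, an ATPase gene of recombination, fell by 0.81, RMI2, a subunit of the BLM complex, by 0.70, and RPA2, a subunit of the protein that coats single-stranded DNA, by 0.77. After siTAZ, PSMC3IP, a cofactor of strand exchange, fell by 1.00, FIGNL1 by 0.68 and the ubiquitin ligase gene RFWD3 by 0.57. In A549, 3 fell and none rose after siYAP (median -0.05), and 4 fell and 1 rose after siTAZ (median -0.07). Over all genes tested there, 3.17% were called lower and 2.5% higher after siYAP, and 6.12% and 7.21% after siTAZ. MCM8, a helicase gene of recombination, fell by 0.31 after siYAP and by 0.38 after siTAZ, and FIGNL1 by 0.32 and 0.36. RMI2 fell by 0.31 after siYAP, and GEN1, a resolvase of joined molecules, rose by 0.20 after siTAZ.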

How the data were processed

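The deposited tables of both lines hold read counts per gene, made by the authors from poly(A) RNA-seq; cutadapt, STAR 2.4.2a, DESeq2 and build GRCh38 are named per the submitters' processing notes, while counter, annotation and strandedness were not given in the sources used here. Deposited log2 fold changes, made by the authors, served only to find their model of each line, whose choice of replicate term was then followed. A DESeq2 refit came within 0.001 for 100% of H1299 genes without a replicate term and 99.993% of A549 genes with one. Counts were used as deposited. Totals per library were 16.8 to 20.8 M in H1299 and 10.7 to 45 M in A549, which limits precision most for sparse genes in the shallow A549 libraries.

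Genes were filtered with filterByExpr and tested with edgeR 4.0.16 (TMM, quasi-likelihood F test, Benjamini-Hochberg, adjusted p below 0.05) in R 4.3.3, with DESeq2 1.42.0 as an alternative. H1299 was fitted over 9 libraries without a replicate block, A549 over 9 with it, and both lines jointly over 18 with it within A549, as the authors' deposited fold changes of each line have it. The block in H1299 was therefore an alternative, although the numbers also met the pairing threshold there, and its values stand beside the results it moves. Other alternatives were RLE scaling, no filter, only the groups compared, the other choice of block, and libraries left out. Replicate numbers were taken to pair libraries, since deviations of same-numbered libraries correlated at 0.108 to 0.383 in H1299 and 0.384 to 0.729 in A549 (9 pairs each, threshold 0.1), against -0.324 to 0.16 and -0.55 to 0.279 between different numbers. The numbers come from the labels. No libraries of the same group were near-duplicates, with a chi-square per degree of freedom of at least 6.54 between them. Pairs of libraries from different groups were not examined. The tests of siYAP against siControl in each line were checked on simulated data, and the other comparisons were not. The simulated counts were drawn from the fitted edgeR model itself, so the check cannot show how the tests behave on the real libraries. The members and gene lists were chosen with earlier results of these data known. Genes named outside the 31 are those with the smallest adjusted p of their list in a comparison. Exon overlaps and lengths are from GENCODE release 29, whose symbols matched 97.9% of the listed genes, and promoters are from RefSeq (27 of 31 found). Figures were drawn with matplotlib 3.10.9. Some genes are not reported here.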

Additional observations from a re-analysis of the deposited data

Results flagged for a closer look

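The effect of the same siRNA differed between the lines for 4 pairs of gene and siRNA, each by the interaction term of the joint edgeR fit. RBBP8 gave -0.472487 on the log2 scale (H1299 minus A549) for siYAP, with an adjusted p of 0.0375. With libraries left out it lay between -0.595 and -0.356, with an adjusted p from 0.00783 to 0.558, and it passed in 7 of 21 such fits. RBBP8 gave -0.615 for siTAZ, with an adjusted p of 0.00689, and passed in 19 of 21 such fits, with an adjusted p from 0.00145 to 0.298. RAD51AP1 gave -0.978636 for siTAZ, with an adjusted p of 0.0134, and passed in 17 of 21, with an adjusted p from 0.00111 to 0.373. XRCC2 gave -1.01853 for siTAZ, with an adjusted p of 0.0215, and passed in 11 of 21, with an adjusted p from 0.00145 to 0.381. Each of the 4 passed in 4 of 5 other settings. The exception was the fit with no replicate block, where the adjusted p was 0.303 for RBBP8 after siYAP, 0.102 for RBBP8, 0.33 for RAD51AP1 and 0.277 for XRCC2 after siTAZ. Groups of 3 libraries were not screened for single outlying libraries.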

How the results depend on the processing

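TMM against RLE scaling, no filter on low counts and fits of only the groups compared moved no count of members or of all genes called by over 1.5 times. DESeq2 called 4 members and 1160 genes in A549 siTAZ (8 and 2134 by edgeR), 1 and 363 in A549 siYAP (6 and 909), 518 genes between A549 siYAP and siTAZ (1127), 2 members between H1299 siYAP and siTAZ (1), and 743 genes in the line difference of siYAP (358). With the replicate block, 5606 genes were called in H1299 siTAZ (3680 without it), 4461 in H1299 siYAP (2625), and 3399 genes and 3 members between H1299 siYAP and siTAZ (1846 and 1). With the replicate block in both lines, the line difference held 2797 genes and 7 members for siTAZ (943 and 3) and 1712 genes and 2 members for siYAP (358 and 1). With no replicate block, A549 siTAZ and A549 siYAP each gave 1 gene and 0 members, A549 siYAP against siTAZ gave 2 genes, and the line difference gave 60 genes and 0 members for siTAZ and 13 genes and 0 members for siYAP. The causes were not tested.

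With 1 library or all libraries of 1 replicate number left out, genes called ranged from 940 to 2142 in A549 siTAZ, 157 to 1027 in A549 siYAP, 289 to 1276 between A549 siYAP and siTAZ, 144 to 5267 in H1299 siTAZ, 34 to 4430 in H1299 siYAP, 190 to 2945 between H1299 siYAP and siTAZ, 0 to 2356 for the line difference of siTAZ and 0 to 1612 for that of siYAP. Members called lower ranged from 2 to 8 in A549 siTAZ, 1 to 7 in A549 siYAP, 1 to 24 in H1299 siTAZ, 0 to 23 in H1299 siYAP, 0 to 11 for the line difference of siTAZ and 0 to 10 for that of siYAP, and members called higher from 0 to 2 between H1299 siYAP and siTAZ. Members that did not pass changed sign in such fits. In A549 siYAP the ranges on the log2 scale were FANCC -0.13 to 0.044, FANCF -0.00508 to 0.11, FANCM -0.055 to 0.10, NBN -0.078 to 0.022, PALB2 -0.000275 to 0.047, RAD51B -0.015 to 0.42, RBBP8 -0.13 to 0.00507 and XRCC3 -0.21 to 0.13. In H1299 siYAP the ranges on the log2 scale were DNA2 -0.46 to 0.021, FANCF -0.045 to 0.64 and RAD51D -0.10 to 0.052. In A549 siTAZ the ranges on the log2 scale were BRCA2 -0.22 to 0.20, FANCE -0.29 to 0.000508, FANCF -0.077 to 0.086, FANCL -0.010 to 0.088, NBN -0.047 to 0.012, PALB2 -0.046 to 0.000734, RAD51AP1 -0.16 to 0.070, RAD51D -0.046 to 0.048, RBBP8 -0.10 to 0.079 and XRCC3 -0.26 to 0.048. In H1299 siTAZ the ranges on the log2 scale were FANCF -0.036 to 0.61, RAD50 -0.23 to 0.00943 and RAD51B -0.16 to 0.062. Leaving out all libraries of 1 number leaves 2 libraries per group. FANCF in H1299 and FANCB, RAD54L and RAD54B in A549 have the fewest reads and the widest errors.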

Other observations

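Other repair pathways were examined as lists. Of all genes tested in H1299, 8.75% were called lower and 7.89% higher after siYAP, and 12.4% and 10.9% after siTAZ. Of 18 genes of damage signalling tested in H1299, 8 fell and 1 rose after siYAP, and 8 fell and 2 rose after siTAZ. CLSPN, an adaptor of the replication checkpoint, fell by 0.66 after siYAP and by 1.03 after siTAZ, and TP53BP1, which protects broken ends from resection, rose by 0.36 and 0.52 on the log2 scale. Of 17 genes of base excision repair, 4 fell and 3 rose after siYAP and 5 fell and 2 rose after siTAZ in H1299. The glycosylase gene UNG fell by 0.43 after siYAP and by 0.76 after siTAZ, NEIL3 by 0.82 and 1.23, and XRCC1, a scaffold of single-strand break repair, rose by 0.41 after siYAP. Of 13 genes of end joining, 3 fell and 1 rose after siYAP, and 3 fell after siTAZ; XRCC5, a subunit of Ku, fell by 0.34 after siYAP and by 0.45 after siTAZ. Of 18 genes of nucleotide excision repair, 1 fell and 1 rose after siYAP and 2 fell after siTAZ. Of 7 genes of mismatch repair, none was called after siYAP and 1 fell after siTAZ.

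In A549, 1 damage signalling gene fell and 1 rose after siYAP and 3 fell after siTAZ, of 18. TIMELESS, a factor of replication forks, fell by 0.18 after siYAP and by 0.24 after siTAZ, and POLQ, the polymerase of end joining at microhomology, by 0.37 and 0.36. After siTAZ, 3 of 13 end joining, 2 of 17 base excision and 1 of 17 nucleotide excision repair genes fell. After siYAP, 1, 0 and 0 genes of the same lists fell and none rose. Of the 7 mismatch repair genes in A549, none was called after siYAP and 2 fell after siTAZ. Of all genes tested in A549, 3.17% were called lower and 2.5% higher after siYAP, and 6.12% and 7.21% after siTAZ.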
